A study of Mus musculus with 6 samples.

Results

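The genes of 7 transcription factors that pattern embryonic tissues, Foxa2, Ptf1a, Twist2, Nkx6-1, Cdx1, Dlx3 and Osr2, were followed in oligodendrocyte precursor cells (OPCs) with and without the DISC1-Δ3 allele. They make up 7 of the 18211 genes in the deposited table. They were picked by name because an earlier reading of this same contrast had shown almost no reads for them in wildtype OPCs and clear reads in DISC1-Δ3 OPCs. The difference between the genotypes is therefore how they were chosen, and it is given below as a description without a test. Tests are reserved for genes that the choice did not use, which are the family relatives, the protein partners, the genes that flank them on the chromosome and lists of genes from the tissues they pattern.

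The study sequenced messenger RNA from 6 libraries of OPCs, 3 from wildtype controls and 3 from DISC1-Δ3 mice, all on the C57BL/6 background. DISC1-Δ3 mice carried NG2-CreERTM and 1 Disc1 allele with a floxed exon 3 (DISC1 exon3 fl/+), so that tamoxifen removed exon 3 from a single allele in cells that use the NG2 promoter, while the wildtype mice carried no CreERT. Both groups received tamoxifen by gavage on 4 consecutive days, from postnatal day 4 to 7, and OPCs were isolated from the cerebral hemispheres at postnatal day 7 by immunopanning on the receptor Pdgfrα. Since the controls carried no recombinase, the effects of the Cre protein and of the deleted exon cannot be told apart, and the sources do not state whether cells of several pups were pooled.

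Patterning factors are DNA-binding proteins that assign positional or organ identity to embryonic cells, often by switching on a whole programme of downstream genes, and in most differentiated cells of other organs their genes are silent. Foxa2 is a forkhead protein of the definitive endoderm, the liver and the floor plate of the neural tube. Ptf1a and Twist2 are basic helix-loop-helix (bHLH) proteins, the first of the pancreas and of inhibitory neurons in the cerebellum and dorsal spinal cord, the second of dermis and other mesenchyme. Nkx6-1, Cdx1 and Dlx3 are homeobox proteins, of pancreatic beta cells and the ventral spinal cord, of the intestine and posterior body axis, and of placenta, skin, tooth and bone, respectively. Osr2 is a zinc finger protein of the odd-skipped family with roles in the palate, teeth and joints. OPCs are known by other factors, among them Olig2 and Sox10.

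In the mouse genome (build GRCm38) these genes lie on separate chromosomes, except for Foxa2 and Ptf1a, which share chromosome 2 but lie far apart. Foxa2 (Entrez gene 15376) spans chr2:148042877-148046969 on the minus strand and Ptf1a (19213) chr2:19445663-19447501 on the plus strand. Twist2 (13345) spans chr1:91801461-91848034 on the plus strand, and Nkx6-1 (18096) spans chr5:101659184-101664711 on the minus strand. Dlx3 (13393) spans chr11:95120117-95125296 and Osr2 (107587) chr15:35296098-35303305, both on the plus strand. The RefSeq annotation places Ptf1aos over Ptf1a, Gm46117 over Twist2 and Gm52351 over Cdx1. None of these 3 genes is in the table, and the library protocol does not describe a step that marks strand, so reads from them and from the patterning gene cannot be told apart.

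RefSeq promoter sequences (GRCm38.p6) matched 4 of the 7 genes, Foxa2, Ptf1a, Twist2 and Nkx6-1. The 250 bases before the start of 3 of them are shown for a feature that the choice of genes did not use and in which they differ, their content of CpG dinucleotides, which are written in capitals. They lie at chr2:148046970-148047219 on the minus strand for Foxa2 (the most upstream of its 3 RefSeq starts), at chr2:19445413-19445662 on the plus strand for Ptf1a and at chr1:91801211-91801460 on the plus strand for Twist2.
Foxa2: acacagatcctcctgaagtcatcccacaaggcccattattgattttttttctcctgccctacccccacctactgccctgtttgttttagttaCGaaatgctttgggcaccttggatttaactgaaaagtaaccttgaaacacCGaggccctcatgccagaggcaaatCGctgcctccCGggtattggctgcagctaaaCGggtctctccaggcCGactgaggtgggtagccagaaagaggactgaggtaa
Ptf1a: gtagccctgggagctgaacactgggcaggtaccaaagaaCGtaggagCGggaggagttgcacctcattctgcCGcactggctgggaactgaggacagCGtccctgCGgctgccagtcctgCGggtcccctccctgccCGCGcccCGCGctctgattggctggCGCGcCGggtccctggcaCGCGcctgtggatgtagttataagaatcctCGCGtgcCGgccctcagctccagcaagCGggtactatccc
Twist2: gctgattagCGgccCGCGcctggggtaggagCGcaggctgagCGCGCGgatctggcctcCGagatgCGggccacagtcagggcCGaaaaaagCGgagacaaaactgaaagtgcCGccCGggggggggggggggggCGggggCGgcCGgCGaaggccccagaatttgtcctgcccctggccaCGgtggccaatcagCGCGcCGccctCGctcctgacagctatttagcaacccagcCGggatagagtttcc
The Ptf1a window holds 19 CpG and the Twist2 window 23, more than in 69.2% and 79.6% of the 17908 RefSeq promoters of genes in the table, whose median is 12. The Nkx6-1 window holds 30, more than 90.9% of promoters. Foxa2 is more varied, with 6, 20 and 13 CpG before its 3 starts, and the sequence shown is the poorest of them. The core letters bound by TCF/LEF factors, which carry the Wnt/β-catenin response (CTTTGNN with A or T at both N, either strand), are in none of the 6 windows of these 4 genes and in 11.7% of all promoters. The E-box letters CANNTG, read the same on both strands and bound by bHLH proteins, are in 1 of the 6 windows, the one before the most downstream Foxa2 start, and in 60.8% of all promoters. Absence from a window says only that these letters are not within those 250 bases.

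The libraries held 13716619 to 16417219 reads assigned to genes, so that a single read was worth 0.0609 to 0.0729 CPM (reads scaled to library size). A genotype whose libraries each held no more than 3 reads of a gene, or 0.183 to 0.219 CPM, was counted as at the detection floor for it. DISC1-Δ3 replicate 3 stood apart from its group: the chi-square per degree of freedom between its counts and those of replicates 1 and 2 was 5.07 and 4.82, against 2.60 between those 2 and 1.79 to 2.85 among the wildtype libraries. Disc1 itself, counted per gene without resolving exon 3, had 350, 406 and 455 wildtype reads and 295, 292 and 349 in DISC1-Δ3 OPCs (log2 fold change −0.45, adjusted p = 0.000528 by the quasi-likelihood test of edgeR, adjusted after Benjamini and Hochberg). The defining markers of OPCs were present in both genotypes, with a mean summed RPKM of 556 in wildtype and 725 in DISC1-Δ3 libraries. Among markers of other cells, those of neurons, endothelium, pericytes and meningeal fibroblasts summed lower in both genotypes, and the other lists summed higher. Those of microglia stood at 9444 and 6473, and of mature oligodendrocytes at 2161 and 1999. Astrocyte markers stood at 1278 and 1189, and those of choroid plexus and ependyma at 859 and 1085. Sums over different genes do not give shares of cells, and OPCs here names the immunopanned preparation. Pdgfra and Olig2 rose in DISC1-Δ3 OPCs by 0.48 and 0.53 on the log2 scale, and Sox10 differed by 0.11 (adjusted p = 0.151).

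In wildtype OPCs no library held more than 3 reads of any of the 7 genes, while no DISC1-Δ3 library held fewer than 14. Added over the 7 genes, wildtype libraries 1 to 3 held 7, 11 and 4 reads and DISC1-Δ3 libraries 1 to 3 held 336, 410 and 370. The difference was thus present in each DISC1-Δ3 library, and 9 of the 21 wildtype values were 0. In a bulk library, a few cells with much of a transcript and many cells with little of it cannot be told apart. All 7 genes passed the minimum for testing (RPKM of at least 0.5 in 3 libraries) through the 3 DISC1-Δ3 libraries alone, with no wildtype library at the minimum, so that any tested gene of this kind had to differ. The genotypes did not overlap for any of them, as the choice required. Over all 13792 tested genes the groups were apart for 49.7%, and for 26.4% with the DISC1-Δ3 libraries on top, and 39.9% were called at an adjusted p under 0.05.

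**Figure D1:**
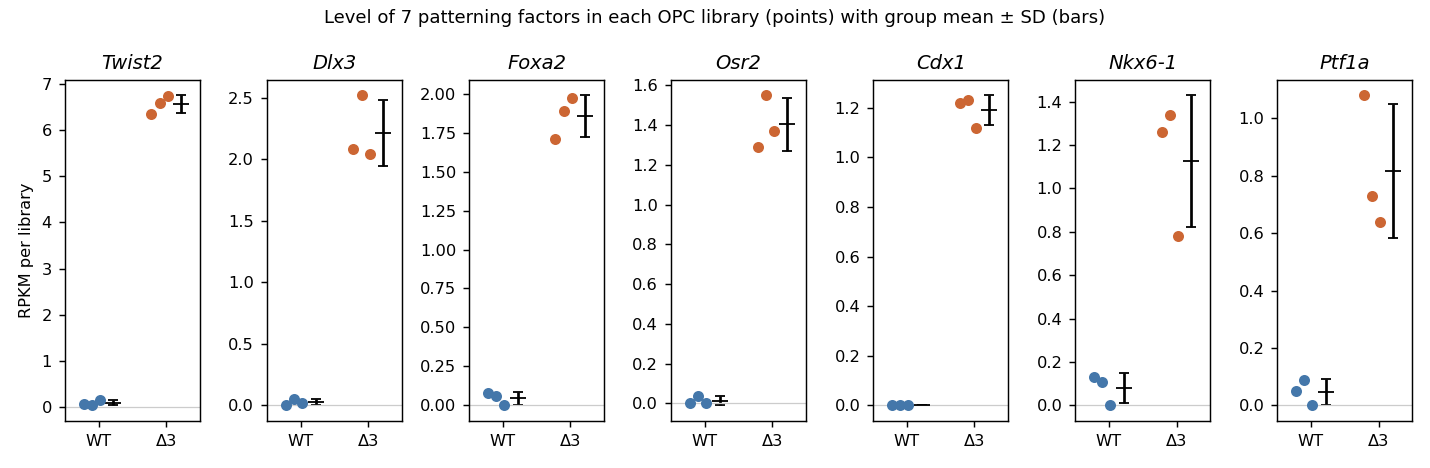
Level of each of the 7 genes in RPKM (reads scaled to transcript length and library size) in the 3 wildtype (WT) and 3 DISC1-Δ3 (Δ3) libraries, 1 point per library, with the group mean and SD beside the points. Each panel has its own linear scale; Twist2 reached 6.35 to 6.74 RPKM and Ptf1a 0.64 to 1.08, and no wildtype library passed 0.15.

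Foxa2, the forkhead factor, had 2, 2 and 0 reads in wildtype libraries 1 to 3 and 47, 59 and 61 in DISC1-Δ3 libraries 1 to 3. Per length, this was 0.0467 ± 0.0416 RPKM in wildtype and 1.86 ± 0.133 RPKM in DISC1-Δ3 OPCs (mean ± SD, n = 3 each). The lowest DISC1-Δ3 library lay far above the highest wildtype library, and the 3 DISC1-Δ3 libraries lay close together. The ratio of reads over library size was 39.4, with an exact 95% interval of 15.1 to 146 that covers counting error only, as do all intervals given here for these genes. Set against 3 reads in each wildtype library, the DISC1-Δ3 level was 17.3-fold.

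Of the bHLH genes, Twist2 had the highest level and Ptf1a the lowest. Twist2 had 1, 1 and 3 wildtype reads against 108, 127 and 129 in DISC1-Δ3 libraries. That is 0.0867 ± 0.0551 and 6.56 ± 0.198 RPKM, a ratio of 68.7 (29.2 to 213) and 37.9-fold against 3 reads in each wildtype library. Its DISC1-Δ3 libraries had a coefficient of variation of 3.01%, the smallest of the 7. Ptf1a, which builds the PTF1 complex of the pancreas, had 1, 2 and 0 wildtype reads against 21, 16 and 14 in DISC1-Δ3 libraries. Its level was 0.0467 ± 0.0451 and 0.817 ± 0.232 RPKM, with a ratio of 16.1 (5.19 to 80.4), or 5.39-fold against 3 reads in each wildtype library. The coefficient of variation was 28.5%, the widest of the 7, with DISC1-Δ3 replicate 1 the highest.

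Among the homeobox genes, Dlx3, which acts in skin, tooth and bone, was at 0, 2 and 1 wildtype reads against 73, 100 and 81 in DISC1-Δ3 libraries. It reached 0.0233 ± 0.0252 and 2.21 ± 0.266 RPKM, a ratio of 80.0 (27.0 to 390) and 26.4-fold against 3 reads in each wildtype library. Cdx1 (12590), the intestinal factor, spans chr18:61018862-61036199 on the minus strand and had 0 reads in all 3 wildtype libraries and 28, 32 and 29 in DISC1-Δ3 libraries. It is the only one of the 7 without a single wildtype read. Its DISC1-Δ3 level of 1.19 ± 0.0608 RPKM was at least 9.29-fold higher than the 3 reads per library that a count of 0 allows. Nkx6-1, a factor of the ventral neural tube and of beta cells, had 3, 3 and 0 wildtype reads against 30, 36 and 21 in DISC1-Δ3 libraries. It stood at 0.0800 ± 0.0700 and 1.13 ± 0.303 RPKM, with a ratio of 13.7 (6.04 to 38.3), or 9.13-fold against 3 reads in each wildtype library. Its lowest DISC1-Δ3 value was in replicate 3, the library that stood apart, and its coefficient of variation was 26.9%.

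Osr2, the odd-skipped zinc finger gene, had 0, 1 and 0 wildtype reads against 29, 40 and 35 in DISC1-Δ3 libraries. This gave 0.0133 ± 0.0231 and 1.40 ± 0.133 RPKM. With a single wildtype read in all, the ratio of 98.2 has an interval from 17.2 to 3916, and the value against 3 reads in each wildtype library was 10.8-fold. The ratios of Foxa2, Ptf1a, Twist2, Nkx6-1, Dlx3 and Osr2 have overlapping intervals, which does not settle whether they differ, and their order was not tested.

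Ordered by RPKM in DISC1-Δ3 OPCs, the genes run from Twist2 through Dlx3, Foxa2, Osr2, Cdx1 and Nkx6-1 to Ptf1a. The ranges of neighbours are separate down to Cdx1. Cdx1 and Nkx6-1 overlapped, as did Nkx6-1 and Ptf1a. Dlx3 and Foxa2 were separated narrowly, with a lowest Dlx3 value of 2.04 RPKM and a highest Foxa2 value of 1.97 RPKM. Even in DISC1-Δ3 OPCs these levels were modest, since the mean RPKM of Ptf1a lay above that of 28.2% of all genes in the table and that of Twist2 above 55.8%. Summed RPKM of the 7 genes was 0.32, 0.40 and 0.17 in wildtype libraries 1 to 3, and 14.99, 15.86 and 14.66 in those of DISC1-Δ3. Divided by the summed RPKM of 9 OPC markers this was 0.0564%, 0.0722% and 0.0311% in wildtype libraries, against 2.06%, 2.15% and 2.07% in those of DISC1-Δ3, a narrow range within the second group.

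Few genes of the table behaved in this way. At the wildtype floor stood 2499 genes, and 37 of them (1.48%) reached 10 reads or more in each of the DISC1-Δ3 libraries, with 0 genes doing the reverse. Transcription factors of patterning families account for 8 of the 37, the 7 chosen genes and Ascl4, a bHLH gene first known from skin, with 0, 0 and 3 wildtype reads against 28, 23 and 25 in DISC1-Δ3 libraries. For the 7 this count only repeats the way they were chosen. Leaving out 1 library at a time, a check added after the data were seen, gave 38 to 50 such genes, and 1 to 3 patterning genes beyond the 7 in place of 1 (3 without wildtype replicate 3 or without DISC1-Δ3 replicate 1, 2 without DISC1-Δ3 replicate 2).

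The closest relatives of the 7 genes were a mixed group. The table holds 11 paralogs, of which 6 passed the minimum for testing, and 2 rose and 1 fell (edgeR's quasi-likelihood test, adjusted p under 0.05), against 20.4% and 19.5% of all tested genes. Osr1, the paralog of Osr2 that acts in kidney and heart development, had 5, 4 and 2 wildtype reads against 120, 140 and 125 in DISC1-Δ3 libraries. Its level was 0.133 ± 0.0651 RPKM in wildtype and 4.44 ± 0.248 RPKM in DISC1-Δ3 OPCs, with no overlap. Like the 7, Osr1 passed the minimum through the DISC1-Δ3 libraries alone, so that its call there is no support, and the count of rises without it is 1. In the fit without the minimum, over 18172 genes, its log2 fold change was 5.0 ± 0.28 (adjusted p = 5.07e-20). Both odd-skipped genes of the mouse were therefore low in wildtype and clearly present in DISC1-Δ3 OPCs.

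Nkx6-2, a relative of Nkx6-1 that oligodendrocytes normally use, was already present in wildtype OPCs with 83, 94 and 107 reads and had 128, 121 and 141 in DISC1-Δ3 libraries. Its log2 fold change was 0.38 ± 0.14 (adjusted p = 0.0369). The call was lost with DESeq2 (adjusted p = 0.108) and when either wildtype replicate 1 or 2 or DISC1-Δ3 replicate 1 or 3 was left out, with a range of 0.00363 to 0.140 over all alternatives. Nkx6-3 had 0 reads in wildtype and 0, 4 and 2 in DISC1-Δ3 libraries, and was not tested.

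The Dlx family split by level. Dlx1, Dlx2, Dlx5 and Dlx6, which act in forebrain inhibitory neuron precursors, were all present in wildtype OPCs at means of 59.9, 35.8, 17.6 and 2.34 RPKM. Only Dlx1 of these passed the test, with a log2 fold change of −0.14 ± 0.05 (adjusted p = 0.0243), a call that both limma fits, library totals without TMM scaling and 3 of the 6 fits with a library left out did not give (range 0.00752 to 0.342). Dlx2, Dlx5 and Dlx6 had log2 fold changes of 0.03, 0.04 and 0.06 (adjusted p = 0.659 or higher). Dlx4 lies 15151 bases from Dlx3 in the same gene pair and had 1, 1 and 5 wildtype reads and 4, 6 and 5 in DISC1-Δ3 libraries, which overlapped. Dlx3 thus went from 0.0233 to 2.21 RPKM while its neighbour Dlx4 stood at 0.0867 ± 0.0808 and 0.193 ± 0.0252 RPKM.

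The remaining paralogs had few reads. Foxa1, the relative of Foxa2, had 1, 0 and 0 wildtype reads against 5, 1 and 3 in DISC1-Δ3 libraries. Cdx4, relative of Cdx1, had 1 read in 1 wildtype library and none elsewhere. Twist1, the relative of Twist2 in cranial mesenchyme, had 5, 5 and 11 wildtype reads against 10, 21 and 3 in DISC1-Δ3 libraries, where replicates spread more widely than the groups. None of the 3 passed the minimum for testing.

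**Figure D2:**
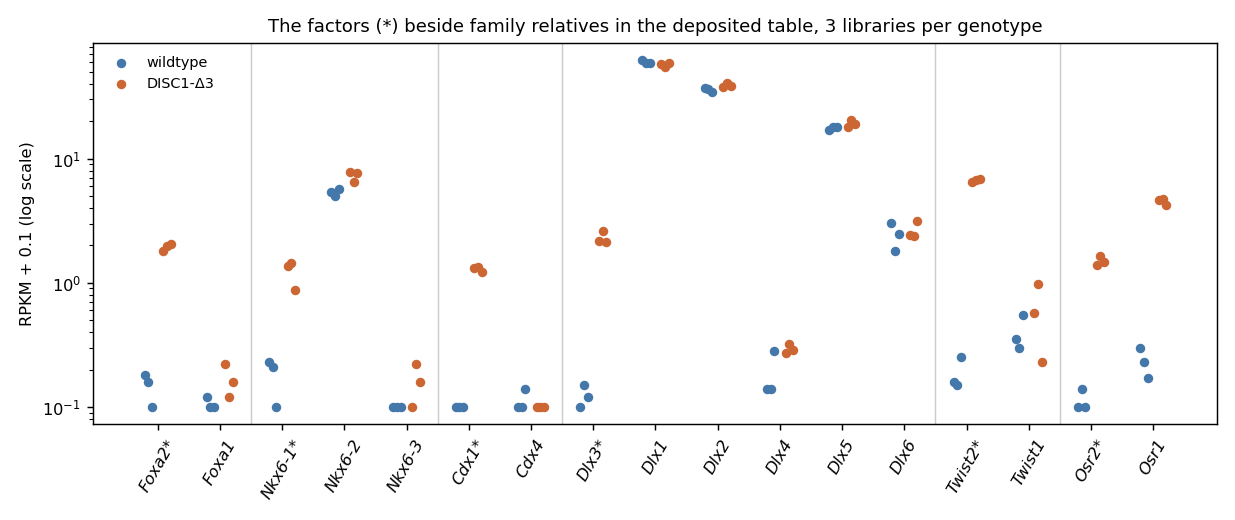
RPKM + 0.1 on a log axis for the chosen genes (marked *, without Ptf1a, which has no paralog on the list) and their family relatives, 1 point per library, wildtype on the left and DISC1-Δ3 on the right of each gene. Osr1 follows the pattern of Osr2, while Dlx1, Dlx2, Dlx5 and Dlx6 are present in both genotypes and Foxa1, Cdx4 and Nkx6-3 lie at the bottom of the scale.

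Ptf1a works in a complex with an E protein (Tcf3, Tcf4 or Tcf12) and with Rbpj or its pancreatic relative Rbpjl. All 3 E protein genes rose, Tcf3 by 0.30, Tcf4 by 0.23 and Tcf12 by 0.38 on the log2 scale (adjusted p = 0.000456, 0.00402 and 2.24e-05), and these calls held in all 15 fits, the one reported and 14 alternatives. Tcf12, for instance, went from 17.9 ± 0.403 to 25.3 ± 1.94 RPKM. Rbpj fell by 0.29 on the log2 scale (adjusted p = 0.0018), a call lost in both limma fits (range up to 0.154). Rbpjl had 14, 5 and 7 wildtype reads against 14, 12 and 27 in DISC1-Δ3 libraries, overlapping between the genotypes and not tested. The common partners of Ptf1a were thus well present in both genotypes, and the pancreas-specific one was scarce.

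Beyond the direct relatives, 280 genes of patterning factor families other than the 7 were in the table. Of these, 79 were at the floor in all 6 libraries and 122 passed the minimum for testing. Among the tested, 50 rose (41.0%) and 12 fell (9.84%), with a median log2 fold change of 0.23, while among all 13792 tested genes 20.4% rose and 19.5% fell, with a median of 0.01. Of the 50, 9 had passed the minimum through the DISC1-Δ3 libraries alone, as had 148 of the 2807 rises over all genes, and 1 of the 12 had passed through the wildtype libraries alone. Such calls are no support, and 41 rises and 11 falls remain without them. With library totals in place of TMM scaling, 68 of these patterning genes rose and 8 fell, while the share of rises among all calls moved from 51.1% to 69.2%. The largest rises without overlap were those of Barx1, Tbx4, Osr1, Ascl4 and Gbx2, all 5 among those 9 genes, and they are therefore given from the fit without the minimum. Tbx4, a T-box gene of the hindlimb and lung, had 3, 1 and 9 wildtype reads against 204, 194 and 221 in DISC1-Δ3 libraries, a log2 fold change of 5.45 ± 0.26 (adjusted p = 7.15e-23). Gbx2, a homeobox gene of the hindbrain border, had 9, 7 and 4 and then 101, 101 and 81 reads (3.72 ± 0.28, adjusted p = 2.3e-15). Barx1, a homeobox gene of stomach and tooth, had 0 reads in every wildtype library and 9, 12 and 15 in DISC1-Δ3 libraries. These 3 genes and the 7 were alike in standing near 0 in wildtype OPCs, but Tbx4 and Gbx2 had more wildtype reads in sum than any of the 7.

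**Figure D3:**
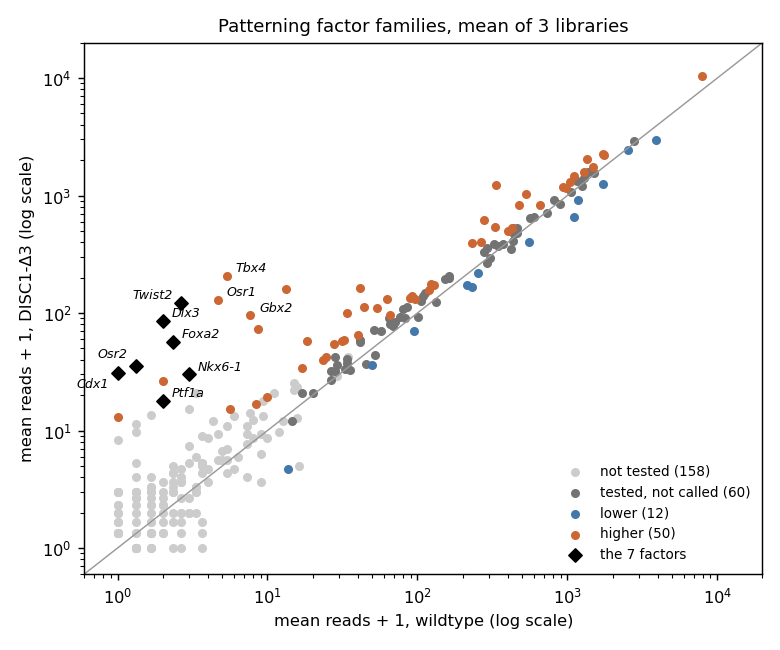
Mean reads + 1 over 3 libraries in wildtype (x axis) and DISC1-Δ3 OPCs (y axis), both on log scales, for the 7 genes (diamonds) and 280 other patterning factor genes (circles), coloured by call. The diagonal marks equal means; the 7 genes lie above it at the left edge, with Tbx4, Osr1 and Gbx2 named for comparison, and most untested genes lie near 0 in both genotypes.

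The largest falls among patterning genes were smaller. Sox15, a Sox gene of muscle precursors and skin, had 13, 13 and 12 wildtype reads against 4, 5 and 2 in DISC1-Δ3 libraries and passed the minimum through the wildtype libraries alone (log2 fold change −1.84 ± 0.56 without the minimum, adjusted p = 0.00857). Hlx, Lyl1 and Gli3 fell by 0.84, 0.56 and 0.55 on the log2 scale. Lyl1 and Hlx are factors of blood cells, and 6 of 6 microglial markers fell in the same libraries, with a summed RPKM of 9391 to 9527 in wildtype and 6301 to 6582 in DISC1-Δ3 OPCs; the part of this change in the fall of both genes was not tested. Tfap2c fell by 0.55 (adjusted p = 0.048) but passed in 4 of 15 fits only, with a range of 0.0304 to 0.164.

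The counts differed by family, a difference that was not tested. All 4 tested Irx genes rose (median log2 fold change 0.92). Of 8 tested T-box genes 5 rose and 1 fell. Of 16 tested tissue bHLH genes beyond Ptf1a and Twist2, 8 rose and 2 fell. The counts by family still hold genes that passed the minimum through the libraries of a single genotype. Tbx4 and Ascl4 are among them, and such calls are no support. Among the forkhead genes other than Foxa2, 6 of 23 tested rose and 2 fell, and among Nkx genes other than Nkx6-1, 3 of 4 tested rose. Of 21 Hox genes in the table, 18 were at the floor in all libraries and 0 passed the minimum for testing, so that the Cdx1 reads were found beside a nearly silent Hox family, which Cdx proteins regulate in the embryo.

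**Figure D4:**
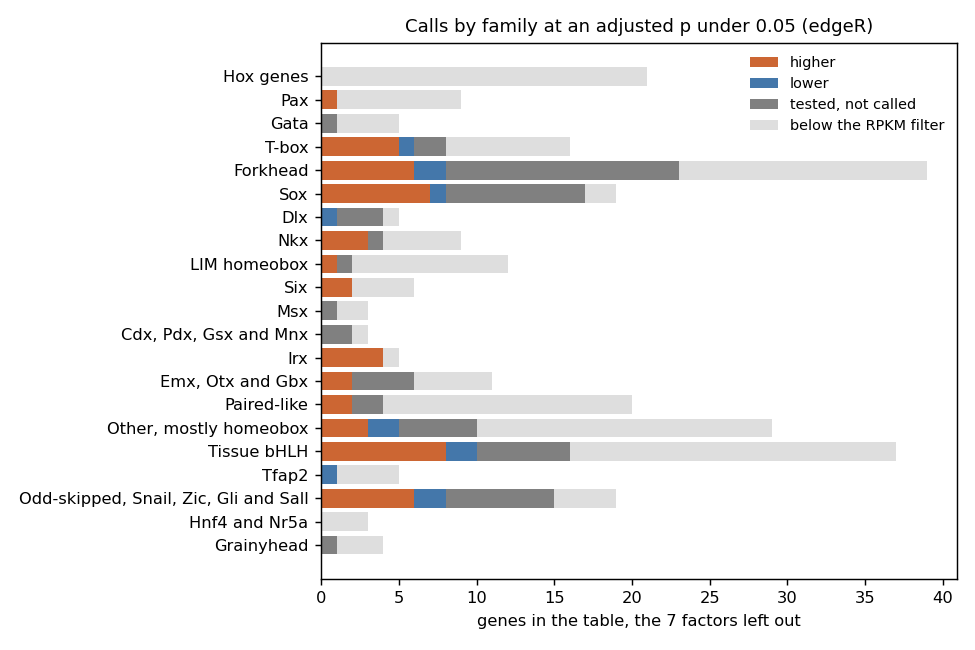
Number of genes per patterning factor family that rose, fell, were tested without a call or stayed below the minimum of 0.5 RPKM in 3 libraries, the 7 chosen genes left out. All 4 tested Irx genes rose, none of the 21 Hox genes was tested, and the forkhead family had the most tested genes, 23. The bars include genes that passed the minimum through the libraries of a single genotype.

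The tissues that these factors pattern were searched for their characteristic genes. Of 14 genes of endoderm and liver, 3 were tested, and Sox17 and Ttr rose by 0.50 and 0.26 on the log2 scale (adjusted p = 0.018 and 0.00142). Sox17 is also used by endothelium and by oligodendrocyte precursors, and Ttr by choroid plexus, while the defining genes Hnf4a, Gata4 and Alb had at most 1, 3 and 12 reads in any library. Among the floor plate genes, Ntn1 rose by 0.51 and Spon1 fell by 0.16, while Shh, which Foxa2 regulates in the floor plate, had 1, 2 and 4 wildtype reads against 6, 5 and 5 in DISC1-Δ3 libraries. Reads of Foxa2 thus stood beside few reads of these defining genes of the endoderm and of Shh. The calls for Sox17 and Spon1 were lost in 5 and 6 of 15 fits (ranges 0.0063 to 0.0911 and 0.00413 to 0.323).

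Of 16 pancreatic genes, 7 were tested, and Sst, Nkx2-2 and Pax6 rose by 0.70, 0.69 and 0.24 on the log2 scale. These 3 genes are also used in the brain, Sst by inhibitory neurons, Nkx2-2 by the oligodendrocyte lineage and Pax6 by neural progenitors, and the call for Pax6 was lost in 5 of 15 fits (range 0.0066 to 0.127). The hormone genes Ins2 and Gcg had at most 1 read in any library, and the acinar gene Cel at most 2. The acinar genes Cpa1 and Cela1 had more, Cpa1 with 5, 4 and 6 wildtype reads against 10, 14 and 11 in DISC1-Δ3 libraries, without overlap and not tested, and Cela1 with 11, 15 and 11 against 11, 20 and 17 (log2 fold change 0.29, adjusted p = 0.534). Among 11 genes linked to Ptf1a in inhibitory neurons, 4 were tested and Slc32a1, the vesicular GABA transporter, rose by 0.44 (adjusted p = 0.00193). Gad1, Gad2 and Kirrel2, a direct target of Ptf1a, had log2 fold changes of −0.11, −0.25 and −0.24 (adjusted p = 0.327, 0.0888 and 0.111). Of those not tested, Prdm13 had 0, 5 and 0 wildtype reads against 19, 14 and 7 in DISC1-Δ3 libraries. Tfap2a had 1, 2 and 4 against 13, 21 and 26, and Tfap2b 3, 3 and 3 against 6, 10 and 7. Prdm13, Tfap2a and Tfap2b did not overlap between the genotypes, while Pax2, Lhx1, Lhx5 and Skor2 did.

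Of 9 intestinal genes, 3 were tested, 0 rose, and Olfm4 and Lyz1 fell by 0.62 and 0.52 on the log2 scale (adjusted p = 0.0475 and 0.00952), Olfm4 in 4 of 14 fits only. No tested gene of this list thus rose beside the Cdx1 reads. Of those not tested, Lgr5 had 1, 2 and 2 wildtype reads against 5, 9 and 13 in DISC1-Δ3 libraries. Cdh17 went the other way, with 2, 4 and 3 against 0, 0 and 2, both without overlap. Of 16 genes of skin, tooth and bone, the tissues of Dlx3, 5 were tested, with 1 called higher, Runx2, and 1 lower, Tfap2c, whose values are given above. Runx2, the master factor of bone, had 15, 14 and 19 reads in wildtype libraries and 65, 78 and 88 in those of DISC1-Δ3. It passed the minimum through the DISC1-Δ3 libraries alone, and without the minimum its log2 fold change was 2.17 ± 0.24 (adjusted p = 1.52e-10). Krt5 had 0 reads in wildtype and 1 in each DISC1-Δ3 library, and Krt14 had 1 read in all. Of 22 mesenchymal genes, 14 were tested. Sox9 rose by 0.14, a call lost in 5 of 15 fits (range 0.00122 to 0.114), and Col1a1 differed by 0.06 (adjusted p = 0.538). Over the 7 tissue lists, some counted genes belong to more than 1 list.

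The genes on either side of the 7 were compared to see whether the difference reached along the chromosome. Of 14 flanking genes in the table, 10 were tested, 6 rose (60%, against 20.4% of all tested genes) and 1 fell. Cdx1 has the closest neighbours: Slc6a7, 4446 bases away, had 24, 39 and 26 wildtype reads against 54, 61 and 81 in DISC1-Δ3 libraries (log2 fold change 1.05 ± 0.22, adjusted p = 0.000921), and Pdgfrb, 8928 bases away, rose by 0.21 (adjusted p = 0.00324). Pdgfrb is a pericyte gene, and 5 of 5 pericyte markers rose in these libraries, with a summed RPKM of 120.5 to 127 in wildtype and 167 to 172 in DISC1-Δ3 OPCs; their part in its rise was not tested. Beside Ptf1a, Msrb2 and Otud1 rose by 0.74 and 0.32 (adjusted p = 2.72e-05 and 0.00153). Beside Twist2, Asb1 and Hdac4 rose by 0.49 and 0.24 (adjusted p = 0.000475 and 0.027), of which the call for Hdac4 was lost in 5 of 15 fits (range 0.00443 to 0.140).

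Other neighbours did not follow. Cds1, beside Nkx6-1, fell by 0.48 on the log2 scale (adjusted p = 9.93e-05), and Gpat3 on its other side had 6 to 9 reads in any library. Pax1 and Sstr4, which flank Foxa2 at distances of 667828 and 348408 bases, had at most 8 reads in any library and were not tested. Itga3 beside Dlx3 differed by 0.28 (adjusted p = 0.0783, range 0.0257 to 0.264), and Stk3 and Vps13b beside Osr2 had −0.02 and −0.25 (adjusted p = 0.926 and 0.079, the latter from 0.00146 to 0.342 over the alternatives). None of the flanking genes had the size of difference of the 7, the largest being the 1.05 of Slc6a7.

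The genes most like each of the 7 across the 6 libraries were found by Euclidean distance on log2(RPKM + 0.1), which takes level and pattern together. Foxa2 lay closest to Krt79 (distance 0.493), then Marveld3 and Cntn3. Twist2 lay closest to Slc30a2 (0.550), Gna14 and Tbx4, and Osr2 to Vsig8 (0.411), Cdx1 (0.641) and Oxt. Cdx1 lay closest to Oas1d (0.460), Gjb5 and Cyp2e1, each with 0 reads in every wildtype library. The nearest genes of Dlx3 were Otop3 (0.871), Dsc3 and Serpina9, those of Ptf1a were Slc26a4 (0.850), Dkk1 and Ibsp, and those of Nkx6-1 were Lamb3 (0.980), Ptf1a (1.07) and Rab17. Vsig8, the closest pair of all, had 0, 1 and 0 wildtype reads against 32, 36 and 28 in DISC1-Δ3 libraries beside the 29, 40 and 35 of Osr2. With 6 libraries in 2 groups, this likeness rests mainly on the difference between the genotypes.

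Markers of other cells that immunopanned OPCs could hold moved between the genotypes as well. Summed over each list, OPC markers stood at 547 to 567 RPKM in wildtype and 708 to 738 in DISC1-Δ3 OPCs (7 of 9 rose, 1 fell), endothelial markers at 94.2 to 98.5 and 124 to 127 (3 of 5 rose), and neuronal markers at 307 to 309 and 361 to 386 (5 of 5 rose). Choroid plexus and ependymal markers stood at 782 to 901 and 1012 to 1139 RPKM (2 of 6 rose, Ttr and Otx2, with Ttr alone at 764 to 884 and 994 to 1122 and a list median log2 fold change of −0.10), meningeal fibroblast markers at 24.9 to 26.6 and 28.0 to 31.1 (0 of 5 passed in either direction), astrocyte markers at 1265 to 1294 and 1182 to 1202 (1 rose, 5 fell of 6), and mature oligodendrocyte markers at 2148 to 2171 and 1983 to 2016 (4 of 5 fell). No marker of any list was at 0 in all libraries. The largest ratio of these sums was 1.36, for pericytes, and the smallest 0.685, for microglia. The part of these cells in the reads of the 7 genes was not tested.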

How the data were processed

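RNA was sequenced as single-end reads of 50 bases from 6 OPC libraries. The authors deposited 1 table of 18211 genes with an expected count and an RPKM per gene and library, the latter to 2 decimals. The submitters' processing notes name Bowtie2 2.2.5 and mm10 without a role, and the counter is not given in the sources used here. Of deposited expected counts above 0, 90.2% are whole; reads shared between genes were divided by the authors, which can blur paralogs. Deposited RPKM values (per transcript length and library total) carry no further scaling between libraries. The 4 columns of group means were not used.

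Expected counts were rounded and tested with edgeR 4.0.16 (R 4.3.3; quasi-likelihood test, TMM scaling, genotype as the only term), for the 13792 genes with RPKM of at least 0.5 in at least 3 libraries. Two-sided p-values were adjusted by Benjamini-Hochberg over those genes. The threshold was 0.05, at which 39.9% were called; the biological coefficient of variation was 5.44%. The test was tested on simulated data for this 3 against 3 comparison. There, 197 of 200 changed genes among 13792 were recovered, and 8.8% of 216 calls were of unchanged genes. Recovery of small differences on their own, or with as many genes changed as were called here, was not tested. DESeq2 1.42.0 and limma 3.58.1 on log2(RPKM + 1) or log2(RPKM + 0.1), other scalings and filters, a replicate block and each library left out were alternatives.

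For the 7 genes, the ratio of summed reads over library size has an exact 95% binomial interval; the fold against 3 reads per wildtype library uses TMM-scaled CPM. Group values are mean ± SD (n = 3), and log2 fold changes are DISC1-Δ3 minus wildtype, ± SE. The labels do not say that libraries came from separate animals or litters, so p-values measure only the spread between these samples, which may be technical. The 7 genes, the gene lists and the alternatives were chosen with earlier results of these data known. Genes named were the 7, their paralogs, partners and flanking genes, patterning genes detected only in 1 genotype, the 5 largest rises and falls among patterning genes past the threshold without overlap, up to 4 called genes per tissue list, the 3 nearest genes by pattern, Disc1, Pdgfra, Olig2 and Sox10; genes with values that were not called were named from the lists after their values were seen. Of the gene IDs, 18085 matched the RefSeq table used for positions, and promoters came from RefSeq. Some genes that this rule names are not reported here.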

Additional observations from a re-analysis of the deposited data

How the results depend on the processing

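The limits are those of 3 libraries per genotype and of counts near 0. At this depth, values of 0 to 3 reads do not separate a silent gene from a rare transcript. The folds of the 7 genes against 3 reads per wildtype library kept their direction in all settings. In 58 of 63 values they moved by less than the spread between DISC1-Δ3 libraries. The other 5 were of Twist2, at 5.2 to 5.33 on the log2 scale. Of 66 other tested genes (paralogs, partners, flanking genes, tissue lists and named patterning genes), 37 were called. Of these, 26 kept the call in all settings that tested them, 11 lost it in at least 1, and 0 changed sign. Of the 29 not called, 12 passed in at least 1 setting.

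Of the paralogs, 1 rose with DESeq2 in place of 2, and 0 fell in place of 1 in both limma fits and with library totals without TMM. The limma fits gave 7 falls of patterning genes in place of 12, and 1774 (pseudocount 1) or 1763 (0.1) falls over all genes in place of 2691. Without the RPKM minimum, 2 flanking genes fell in place of 1. Leaving out 1 library gave 1 to 2 rises and 0 to 1 falls among paralogs, 7 to 14 falls among patterning genes and 1 to 2 among flanking genes. Library totals without TMM called 5962 genes, 69.2% of them higher, against 5498 and 51.1%, and shifted the median of all genes to 0.09; the cause was not tested. The replicate numbers do not pair the libraries, since same-numbered libraries had correlations of 0.04, 0.03 and −0.01. With the replicate block, 5429 genes were called, and Tfap2c lost its call (adjusted p = 0.0736).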

Other observations

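Several patterning genes lay below the minimum for testing and were looked at in the fit without it, a choice of genes made after the values were seen. Of 158 such genes, 7 rose and 1 fell (edgeR's quasi-likelihood test, adjusted p under 0.05 over all genes), beside 175 rises and 63 falls among all 4380 genes below the minimum. En1, a homeobox gene of the midbrain, had 0, 2 and 0 reads in wildtype and 13, 6 and 19 in DISC1-Δ3 libraries. Tfap2a, a factor of neural crest and skin, had 1, 2 and 4 and then 13, 21 and 26 reads, and Irx6 had 1, 3 and 2 and then 7, 19 and 17. Nr5a2, a nuclear receptor of pancreas and liver, had 0, 0 and 1 reads in wildtype and 9, 5 and 17 in DISC1-Δ3 libraries. Foxl1, a forkhead gene of gut mesenchyme, had 1, 0 and 0 and then 9, 6 and 11, Tlx2 had 0 in each wildtype library and then 3, 9 and 10, and Foxi1 had 0, 0 and 1 and then 2, 4 and 7. Hoxb4 was the one that fell, from 17, 15 and 14 reads to 3, 2 and 7. Prdm13, from the list of genes linked to Ptf1a in inhibitory neurons, had 0, 5 and 0 reads in wildtype and 19, 14 and 7 in DISC1-Δ3 libraries.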
